A study of Mus musculus with 6 samples.

Results

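RNA of 10 genes known as markers of the meninges and of embryonic mesenchyme was measured in bulk in the dorsal telencephalon of mouse embryos: Foxc1, Foxd1, Dcn, Lum, Ogn, Bgn, Postn, Islr, Cxcl12 and Slc6a13. They were chosen by name, with earlier results of these data known, and all 10 were found among the 37991 genes of the count files. The samples were 6 embryos of the outbred CD1 strain at E13.5, with 1 library from each. FGF2, a growth factor that signals through FGF receptor kinases, had been injected at 100 ng into the telencephalic vesicles of 3 embryos, numbered 6, 7 and 8. The vehicle, PBS with 0.1% BSA, had been injected in the same way into the other 3, numbered 7, 8 and 9. All groups therefore shared the injection itself, and no uninjected embryo was analysed here. The labels give the age E13.5 for the injection and for the embryos and do not state the interval between injection and collection. RNA came from formalin-fixed coronal cryosections in front of the hippocampus, in a study of FGF2 and folding of the mouse cortex, and the question put to these genes was whether their RNA differed between FGF2 and vehicle embryos.

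The meninges are layers of connective tissue that wrap the brain and carry its vessels. Their fibroblasts come from neural crest and mesoderm, and over the embryonic cortex they form the basement membrane to which radial glia attach. They also secrete signals, among them retinoic acid, bone morphogenetic proteins and the chemokine Cxcl12, that act on cortical progenitors and migrating neurons. The dorsal telencephalon itself is neural. In this tissue the markers are therefore taken to report mainly on the cells that cover it and line its vessels. Foxd1, however, is also a known gene of the embryonic ventral diencephalon and retina. Which cells gave the reads of any marker, Cxcl12 included, was not tested. In bulk tissue, fewer cells of a type and less RNA per cell cannot be told apart.

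Of the 10 markers, 1 was called higher in the FGF2 embryos and none lower, at an adjusted p under 0.05 in edgeR's quasi-likelihood test. Foxd1 was the called gene, at 2.19-fold. The other 9 did not pass. The counts were also 1 higher and 0 lower at an unadjusted p under 0.05, with DESeq2 and with voom and sample quality weights. Over all 21983 genes tested, 3.63% were called, 2.68% higher and 0.951% lower. At an unadjusted p under 0.05 these shares were 19.3%, 11.2% and 8.13%, with DESeq2 9.76%, 6.11% and 3.64%, and with voom 9.77%, 5.55% and 4.22%. All 10 markers passed the filter on low counts. Their median log2 fold change was 0.11, with 7 positive and 3 negative, against a median of 0.01 over all genes tested. Groups that did not overlap were seen in 3 of the 10 markers (Foxd1, Ogn and Bgn) and in 28.2% of all genes tested.

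The promoters of the called marker, of the other forkhead gene and of the marker whose window held more than 1 of the motifs searched are shown here so that they can be compared. Each is the 250 bases before an annotated transcript start, from RefSeq on GRCm38.p6, a later build than that of the count files. Such windows were found for 8 of the 10 markers, all except Dcn and Lum. Capitals mark a match to a forkhead motif (TGTTTNC), an ETS motif (CCGGAAGT) or a TATA box (TATAAA), searched on both strands. The Foxd1 window lies on the plus strand at chr13:98353995-98354244, that of Foxc1 on the plus strand at chr13:31806396-31806645, and that of Postn, the second of 2 listed, on the plus strand at chr3:54360857-54361106.
Foxd1: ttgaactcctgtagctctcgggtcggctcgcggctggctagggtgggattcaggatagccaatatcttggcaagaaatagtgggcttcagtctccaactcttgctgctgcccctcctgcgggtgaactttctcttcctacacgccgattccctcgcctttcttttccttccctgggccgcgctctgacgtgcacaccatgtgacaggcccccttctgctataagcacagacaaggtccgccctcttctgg
Foxc1: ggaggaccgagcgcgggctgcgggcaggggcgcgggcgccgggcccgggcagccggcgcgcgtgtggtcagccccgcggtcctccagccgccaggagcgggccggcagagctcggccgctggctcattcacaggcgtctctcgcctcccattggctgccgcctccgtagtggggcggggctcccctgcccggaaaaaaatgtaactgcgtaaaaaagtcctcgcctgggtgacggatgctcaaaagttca
Postn: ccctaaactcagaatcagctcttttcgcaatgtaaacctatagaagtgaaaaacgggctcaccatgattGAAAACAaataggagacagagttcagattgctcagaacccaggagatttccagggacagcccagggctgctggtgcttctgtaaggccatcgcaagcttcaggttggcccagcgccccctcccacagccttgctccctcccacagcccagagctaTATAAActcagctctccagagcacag

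The windows of Foxd1 and Foxc1 held none of the 3 motifs, and their GC content was 57.2% and 70.8%, against a median of 52.4% over 32851 windows. The Postn window, with a GC content of 52.0%, held a forkhead match on the minus strand 181 bases before the start and a TATA box on the plus strand 26 bases before it. Ogn was the only other marker with a match, to the TATA box on both strands in overlapping positions, 229 and 227 bases before its start. Of all windows of that length, 17.8% held the forkhead motif, 2.88% the ETS motif and 12.4% the TATA box. A match or its absence in these letters is a description of the window alone.

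Total counts ranged from 61489462 to 81532334 per library. Vehicle 9 had even numbers alone among its counts above 0, where 51.0% to 51.9% were even in the other libraries, and its total divided by 2 was 32112664. Reads of Y-linked genes were found in all 3 FGF2 embryos and vehicle 7 (10475 to 16232), and were close to none in vehicle 8 and vehicle 9 (22 each). Embryo sex was therefore uneven between the groups. With sex as a covariate, 5 genes of the whole table were called, and none of them was a marker. The labels do not say whether the embryos shared litters.

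Read numbers of the markers were high enough to measure each in every library. The lowest deposited count was 140 reads of Slc6a13 in vehicle 8 (in vehicle 9, where all counts are even, Slc6a13 had 168 as deposited and 84 if halved), and the highest was 9810 reads of Bgn in FGF2 embryo 6. Per kilobase of gene model, in RPKM over all 6 libraries, Lum stood highest at 43.2 ± 7.62 (SD, n = 6), followed by Bgn at 36.4 ± 3.05. Dcn followed at 19.8 ± 3.94, Cxcl12 at 12 ± 1.39, Foxc1 at 10.3 ± 1.57, Islr at 9.57 ± 1.39 and Ogn at 9.07 ± 0.922 RPKM. Foxd1 stood at 5.21 ± 2.69, Postn at 4.51 ± 1.34 and Slc6a13 at 0.914 ± 0.349 RPKM. Within 1 SD of each mean, Lum could not be separated from Bgn, the run from Cxcl12 through Foxc1 and Islr to Ogn could not be separated neighbour from neighbour, and neither could Foxd1 and Postn. Slc6a13 was the rarest of the markers and lay below Postn by more than their spread. These means pool both groups, and the order of the Foxd1 and Postn means turned between the groups. They were 3.21 ± 0.319 and 4.19 ± 1.47 RPKM in the vehicle embryos (SD, n = 3). In the FGF2 embryos they were 7.20 ± 2.47 and 4.83 ± 1.41 RPKM. Within 1 SD the 2 genes could not be separated in either group, and FGF2 embryo 8 kept the vehicle order, at 4.66 and 5.31 RPKM.

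**Figure D1:**
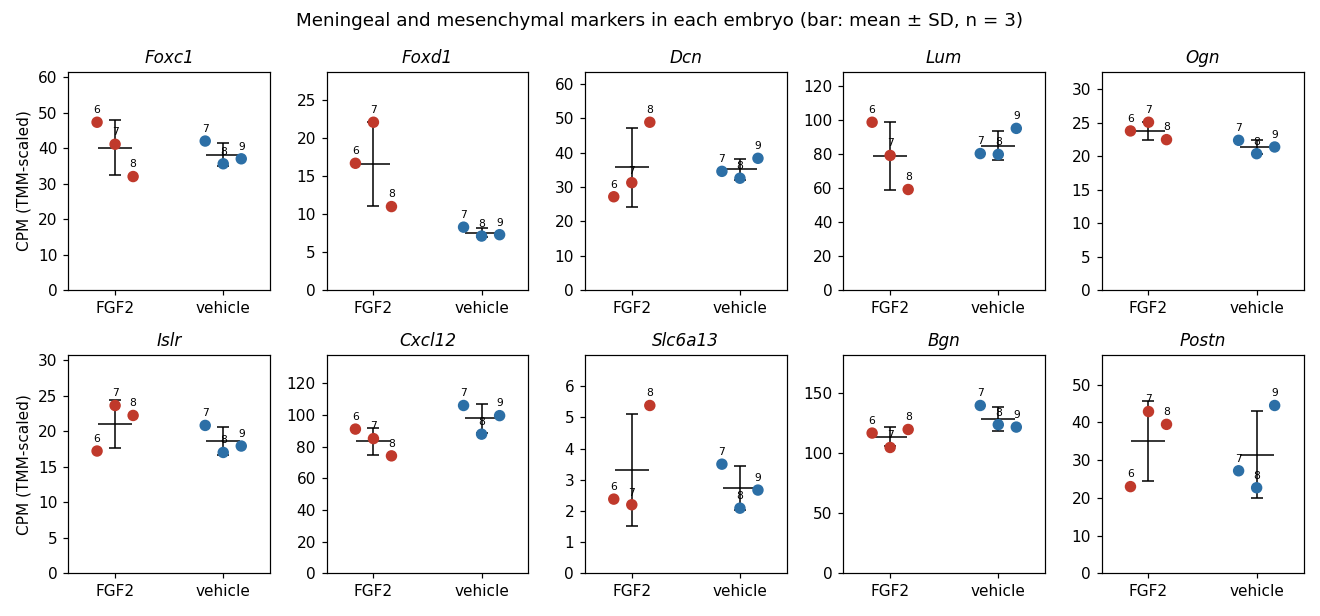
Level of the 10 markers in CPM (counts scaled to library size, with TMM factors), on linear axes from 0, with 1 numbered point per embryo and a bar at the mean ± SD of 3 embryos. All 3 FGF2 points of Foxd1 (11 to 22.1 CPM) lie above all 3 vehicle points (7.12 to 8.29 CPM), whereas the groups of most other markers overlap.

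Foxd1 and Foxc1 encode forkhead transcription factors, and Foxc1 is needed to form the meninges over the cortex. CPM values are read counts after scaling for library size. Foxd1 (ENSMUSG00000078302, 13:99124200-99126660, NCBIM37) had 16.7, 22.1 and 11 CPM in FGF2 embryos 6, 7 and 8. In vehicle embryos 7, 8 and 9 it had 8.29, 7.12 and 7.30 CPM. Every FGF2 embryo was above every vehicle embryo, and the FGF2 embryos differed among themselves far more than the vehicle embryos did. The means were 16.6 ± 5.52 and 7.57 ± 0.631 CPM (SD, n = 3 each), a log2 fold change of 1.13 ± 0.24 (SE; 95% interval 0.58 to 1.68; edgeR adjusted p = 0.0458). The deposited RPKM values of Foxd1 had the same order of groups, with 7.34, 9.59 and 4.66 against 3.57, 2.95 and 3.13.

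The call of Foxd1 sat close to the threshold. It was lost without FGF2 embryo 6 (edgeR adjusted p = 0.105), without FGF2 embryo 7 (0.104) and without vehicle embryo 7 (0.142), 8 (0.196) or 9 (0.148). It held without FGF2 embryo 8, the lowest of its group (log2 fold change 1.35, adjusted p = 0.00161). With sex as a covariate the log2 fold change was 1.0 and the adjusted p was 0.525. Among the 4 embryos with Y-linked reads, the FGF2 mean was 16.6 CPM and vehicle 7 had 8.29 CPM, a ratio of 2.0 with 1 embryo on the vehicle side and so no test. The direction was the same in all 20 alternatives tried, between 0.87 and 1.35 on the log2 scale, and in 9 of them the call was lost.

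Genes of the hypothalamus and eye field, tissues in which Foxd1 is also known, were read in the same libraries. The list was chosen by name, and its genes are not all restricted to those tissues. Of 11 tested genes of that list (18 were listed), 5 were called higher by edgeR and none lower (0 lower also at an unadjusted p under 0.05, with DESeq2 and with voom), and the median log2 fold change was 3.6. The other 6 did not pass, and 1 of the 11 values was negative. Their summed level was 216, 184 and 200 CPM in the FGF2 embryos and 38.4, 39.4 and 41.0 CPM in the vehicle embryos, with no overlap. Nkx2-1, a transcription factor of the ventral forebrain, had 58.9, 60.7 and 26.5 CPM against 1.5, 2.06 and 1.33 CPM, a log2 fold change of 4.89 ± 0.37 (SE, edgeR adjusted p = 0.00158). Like Foxd1, Nkx2-1 was lowest of the FGF2 group in embryo 8. The summed level of the list was instead lowest in FGF2 embryo 7 (184 CPM), where Foxd1 was highest (22.1 CPM). Single genes of the list differed in this, as Fezf1 was lowest in FGF2 embryo 8 (7.53 CPM) and Gbx2 in FGF2 embryo 7 (2.14 CPM). Fezf1 had a log2 fold change of 4.27 ± 0.40 (edgeR adjusted p = 0.00247), and Gbx2 was called with 7.16. The calls of Nkx2-1 and Fezf1 were kept when any 1 embryo was left out, and that of Gbx2 was lost in 5 of the 6 omissions, up to 0.103. The number called in the list ran from 2 (without vehicle embryo 8) to 4 in those omissions, was 3 without FGF2 embryo 6, FGF2 embryo 8 or vehicle embryo 7, and was 0 with sex as a covariate. No gene of the list was at 0 reads in all libraries, but 7 of the 18 did not pass the filter on low counts. Among those, Nkx2-4 had 7, 0 and 4 reads in FGF2 embryos 6, 7 and 8. Hmx2 had 52, 16 and 0 reads there, and Nkx2-2 had 142, 0 and 47. Otp had 1, 2 and 4 reads there, and 0, 1 and 0 in vehicle embryos 7, 8 and 9. Nkx2-4, Hmx2, Nkx2-2, Otp and Foxb2 were named after their values were seen. Whether the sections held cells of these tissues, and their part in the Foxd1 difference, was not tested.

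Foxc1 (ENSMUSG00000050295, 13:31898515-31902504) did not show the difference seen for Foxd1. It had 47.3, 41.1 and 32.0 CPM in FGF2 embryos 6, 7 and 8 and 42, 35.6 and 37.0 CPM in vehicle embryos 7, 8 and 9. The highest and the lowest value of Foxc1 both lay in the FGF2 group. The means were 40.1 ± 7.73 and 38.2 ± 3.36 CPM (SD, n = 3), and the log2 fold change was 0.07 ± 0.15 (SE; 95% interval -0.27 to 0.41; edgeR adjusted p = 0.825). The ratio of Foxd1 to Foxc1 reads was 0.352, 0.537 and 0.345 in the FGF2 embryos and 0.197, 0.200 and 0.197 in the vehicle embryos. This ratio was nearly constant in the vehicle group and higher in each FGF2 embryo.

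**Figure D2:**
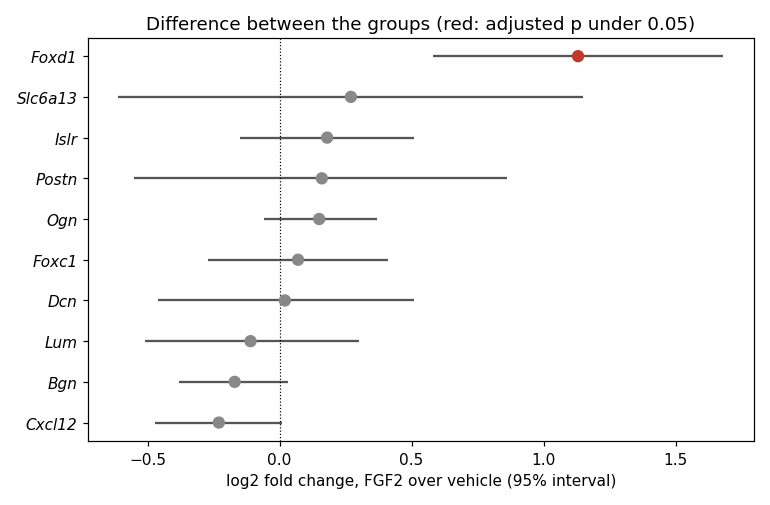
Log2 fold change of each marker, FGF2 over vehicle, with its 95% interval as a line; 0 is marked by the dotted line and red marks an adjusted p under 0.05. Foxd1 is at 1.13 with an interval of 0.58 to 1.68, and the intervals of the other 9 include 0.

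Mesenchymal and neural crest transcription factors were read beside these 2 genes. Of 25 tested (27 listed), 2 were called higher, none lower and 23 did not pass. At an unadjusted p under 0.05, 10 were higher and 0 lower, against 8 and 0 with DESeq2 and with voom. The list's median log2 fold change was 0.42, and 9 of the 25 had groups that did not overlap. Alx1, a homeodomain factor of the frontonasal mesenchyme, had 21.6, 18.0 and 13.4 CPM against 6.04, 4.44 and 6.03 CPM, a log2 fold change of 1.68 ± 0.21 (SE, edgeR adjusted p = 0.00658). The call was kept when any 1 embryo was left out, but not with sex as a covariate. The span of Alx1 overlaps another gene, and Alx1 has a second identifier, of which the one with more reads was used. Tbx15, a T-box factor of craniofacial and limb mesenchyme, had 30.5, 29.5 and 31.8 CPM against 20.2, 20.8 and 15.9 CPM (log2 fold change 0.69 ± 0.12, edgeR adjusted p = 0.0247). The call of Tbx15 was lost without any embryo except FGF2 embryo 8, up to an adjusted p of 0.0864. Meox1 (2.34, adjusted p = 0.0565) did not pass. Tcf21 had 0 reads in every library. The number called higher ran from 1 to 7 when single embryos were left out.

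The meningeal fibroblast and arachnoid list gave a similar count. Of 24 tested genes (25 listed), 2 were called higher, none lower and 22 did not pass, with a median log2 fold change of 0.30 and 12 of 24 not overlapping between groups. At an unadjusted p under 0.05 it had 9 higher and 1 lower, with DESeq2 7 and 0, and with voom 6 and 0. Its summed level was 995, 973 and 864 CPM against 1026, 970 and 1017 CPM, and these groups overlapped. Bmp6, a bone morphogenetic protein, had 4.97, 6.32 and 7.68 CPM against 3.30, 3.02 and 3.30 CPM (log2 fold change 0.98 ± 0.20, edgeR adjusted p = 0.0407). Slc6a20a, an amino acid transporter, had 0.856, 0.973 and 1.12 CPM against 0.393, 0.284 and 0.413 CPM (1.43 ± 0.29, edgeR adjusted p = 0.0429). The call of Bmp6 was lost without FGF2 embryo 7 or any 1 vehicle embryo (up to 0.179), and that of Slc6a20a without any 1 embryo (up to 0.174), so the number called ran from 0 to 5. Aldh1a2, which makes retinoic acid, had 3.93, 12.6 and 9.19 CPM against 2.85, 2.30 and 3.17 CPM and did not pass (1.63 ± 0.39, adjusted p = 0.0713). Ngfr did not pass either (0.75, adjusted p = 0.0509).

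Dcn, Lum, Ogn and Bgn encode small leucine-rich proteoglycans, secreted proteins that bind collagen fibrils and growth factors of the TGF-beta family. None of the 4 was called, at an unadjusted p under 0.05, with DESeq2 or with voom either. Bgn (biglycan, ENSMUSG00000031375, X:70728941-70741272) had 117, 105 and 120 CPM in the FGF2 embryos and 140, 124 and 122 CPM in the vehicle embryos. The groups just failed to overlap, with FGF2 embryo 8 close to vehicle embryo 9. The means were 114 ± 7.70 and 129 ± 9.90 CPM (SD, n = 3), a log2 fold change of -0.17 ± 0.09 (SE; 95% interval -0.38 to 0.03; edgeR adjusted p = 0.334). Bgn lies on the X chromosome, and in the embryos with Y-linked reads alone the ratio of the FGF2 mean to vehicle 7 was 0.815.

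Lum (lumican, ENSMUSG00000036446, 10:97028135-97035337) had 98.6, 79.1 and 59.1 CPM in FGF2 embryos 6, 7 and 8 and 80.2, 79.7 and 95 CPM in vehicle embryos 7, 8 and 9. Both its highest and its lowest value were in FGF2 embryos. The log2 fold change was -0.11 ± 0.18 (SE; 95% interval -0.51 to 0.30; edgeR adjusted p = 0.782). Dcn (decorin, ENSMUSG00000019929, 10:96942245-96980777) ran the other way across the FGF2 embryos, at 27.2, 31.3 and 48.9 CPM, with 34.6, 32.6 and 38.4 CPM in the vehicle embryos. Its log2 fold change was 0.02 ± 0.21 (SE; 95% interval -0.46 to 0.51; edgeR adjusted p = 0.963). Dcn and Lum are neighbours, 47.4 kb apart, yet the ratio of their reads went from 0.275 in FGF2 embryo 6 to 0.396 in embryo 7 and 0.828 in embryo 8. In the vehicle embryos the same ratio was 0.431, 0.409 and 0.405. The FGF2 embryos thus spanned the vehicle values from both sides.

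Ogn (osteoglycin, ENSMUSG00000021390, 13:49703440-49719869) varied less across embryos than the other 3. It had 23.8, 25.1 and 22.5 CPM in the FGF2 embryos and 22.4, 20.4 and 21.4 CPM in the vehicle embryos. The groups did not overlap, but by a margin far smaller than their spread. The log2 fold change was 0.15 ± 0.09 (SE; 95% interval -0.06 to 0.37; edgeR adjusted p = 0.411). The span of Ogn lies within that of Cenpp, a centromere protein gene, so reads of Cenpp introns could be counted for it. The Cenpp span had a log2 fold change of -0.02, but its count also holds the reads over Ogn and so is no separate measure of Cenpp. The deposited RPKM values of Ogn also did not overlap, at 9.86, 10.3 and 9.23 against 8.94, 8.02 and 8.06.

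The other small leucine-rich proteoglycans had a summed level over 12 genes of 32.1, 36.5 and 40.2 CPM against 33.6, 33.2 and 37.3 CPM. Of these 12, 2 were called higher, none lower and 10 did not pass, with a median of 0.07 and 5 of 12 not overlapping. At an unadjusted p under 0.05, 4 were higher and 2 lower, against 3 and 1 with DESeq2 and with voom. Prelp, which links basement membranes to connective tissue, had 4.55, 7.39 and 5.82 CPM against 0.851, 1.35 and 1.46 CPM. Its log2 fold change was 2.28 ± 0.28 (SE, edgeR adjusted p = 0.00653). The call was kept when any 1 embryo was left out, but not with sex as a covariate. Epyc had 2.01, 2.69 and 2.27 CPM against 0.425, 0.688 and 0.794 CPM (1.87 ± 0.29, edgeR adjusted p = 0.0168), and its call was lost without FGF2 embryo 7, vehicle embryo 7 or vehicle embryo 8, up to 0.0865. Spans of both overlap another gene, and their RPKM values had the same order of groups (Prelp 1.8 ± 0.419 against 0.348 ± 0.0865, Epyc 1.0 ± 0.160 against 0.263 ± 0.0704). Fmod did not pass and had a negative value (-0.67, adjusted p = 0.0561), as did Ecm2 with a positive one (0.69, adjusted p = 0.115).

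The proteoglycan genes lie in runs along the genome. On chromosome 10 the order is Dcn, Lum, Kera and Epyc, with gaps of 47.4, 34.5 and 30.4 kb. Dcn and Lum at one end did not pass, while Epyc at the far end was called, and Kera between them had 1.5 ± 0.72 (SE, edgeR adjusted p = 0.306). On chromosome 13 the order is Ecm2, Aspn, Omd and Ogn, with gaps of 11.7, 15.2 and 15.5 kb, and none of the 4 was called. All of them lie within the span of Cenpp. Aspn had -0.44 (adjusted p = 0.371) and Omd -0.04 (adjusted p = 0.946). Kera, Aspn and Omd are named for their position and not by the rule for named genes.

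**Figure D3:**
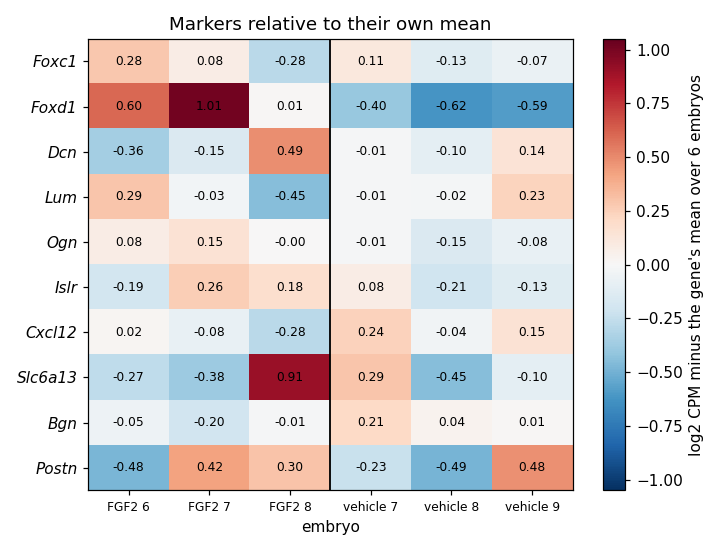
Log2 CPM of each marker in each embryo minus that marker's mean over the 6 embryos; red is above and blue below the marker's own mean. FGF2 embryo 8 is above the mean for Dcn (0.49) and Slc6a13 (0.91) and below it for Lum (-0.45), and Foxd1 is at or above its mean in the 3 FGF2 embryos and at least 0.40 below it in the 3 vehicle embryos.

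Postn and Islr encode secreted or surface proteins of mesenchymal cells. Postn (periostin, a matrix protein of fibrous tissue, ENSMUSG00000027750, 3:54165031-54194961) had 23.0, 42.9 and 39.5 CPM in the FGF2 embryos and 27.2, 22.7 and 44.5 CPM in the vehicle embryos. Each group held high and low embryos, so the groups overlapped fully. The log2 fold change was 0.16 ± 0.30 (SE; 95% interval -0.55 to 0.86; edgeR adjusted p = 0.81). That interval is wide enough to hold differences of either sign. Islr (a marker of mesenchymal stromal cells, ENSMUSG00000037206, 9:58004080-58006949) had 17.2, 23.6 and 22.2 CPM against 20.8, 17.0 and 17.9 CPM. FGF2 embryo 6 stood among the vehicle embryos, and the log2 fold change was 0.18 ± 0.14 (SE; 95% interval -0.15 to 0.51; edgeR adjusted p = 0.538).

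Collagen and matrix genes of the same tissues lay mostly on the lower side in the FGF2 embryos. Of 28 tested, 6 were called lower, 1 higher and 21 did not pass, 24 of the 28 values were negative, and the median log2 fold change was -0.28, with 13 of 28 not overlapping. With DESeq2 11 were lower and 1 higher, and with voom 8 and 1. Col1a1, the main chain of type I collagen, had 886, 937 and 974 CPM against 1815, 1657 and 1808 CPM, a log2 fold change of -0.92 ± 0.09 (SE, edgeR adjusted p = 0.00276). Thbs2, a thrombospondin of connective tissue, had 18.6, 20.4 and 20.7 CPM against 39.0, 38.6 and 55.9 CPM (-1.16 ± 0.15, edgeR adjusted p = 0.00907). Both were called whichever single embryo was left out, but not with sex as a covariate (adjusted p = 0.0961 and 0.189). Among embryos with Y-linked reads, the ratio of the FGF2 mean to vehicle 7 was 0.514 for Col1a1 and 0.51 for Thbs2.

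Mfap4, a microfibril protein (-0.58, edgeR adjusted p = 0.0171), and Col6a2 (-0.48, adjusted p = 0.0185) also fell, as did 2 genes named after their values were seen, Col1a2 (-0.71, adjusted p = 0.0202) and Col6a3 (-0.65, adjusted p = 0.0386). Tgfbi, likewise named after its value was seen, was the 1 gene called higher (0.72, edgeR adjusted p = 0.0483). Each of these 5 calls was lost in some omissions of 1 embryo, with adjusted p up to 0.0843 for Mfap4, 0.0945 for Col6a2, 0.0975 for Col1a2, 0.16 for Col6a3 and 0.206 for Tgfbi. The number of the list called lower then ran from 2 to 8. The median of the list stayed between -0.26 and -0.36 across those omissions.

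Set against Bgn and Lum within each library, Col1a1 gave a ratio that separated the groups. Col1a1 itself did not overlap between the groups, and neither Bgn nor Lum was called, so the ratio is not a separate result. Reads of Col1a1 per read of Bgn were 7.6, 8.89 and 8.1 in the FGF2 embryos and 13.0, 13.3 and 14.9 in the vehicle embryos. Reads of Col1a1 per read of Lum were 8.99, 11.9 and 16.5 against 22.6, 20.8 and 19.0. The summed level of the matrix list was 4261, 4311 and 3769 CPM against 6029, 5491 and 6267 CPM. The 10 markers together stood at 464, 458 and 435 CPM against 485, 429 and 485 CPM, with means of 452 ± 15.3 and 467 ± 32.3 CPM (SD, n = 3), and these groups overlapped.

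**Figure D4:**
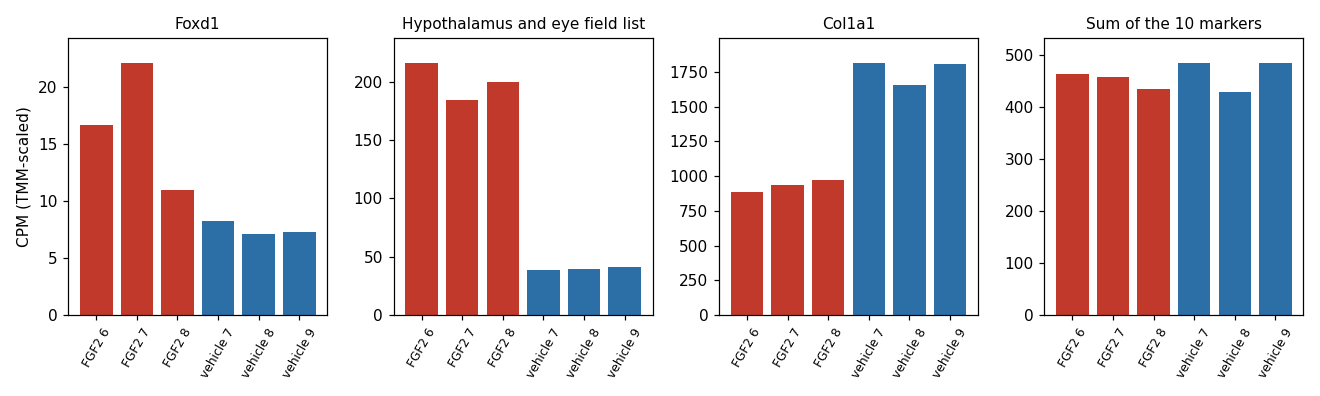
Bars from 0 of CPM in each of the 6 embryos for Foxd1, for the sum of the hypothalamus and eye field genes, for Col1a1 and for the sum of the 10 markers. Foxd1 and the hypothalamus and eye field sum (184 to 216 CPM against 38.4 to 41.0 CPM) are higher in the FGF2 embryos, Col1a1 is lower (886 to 974 CPM against 1657 to 1815 CPM), and the marker sum is similar (435 to 464 CPM against 429 to 485 CPM).

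Cxcl12 (ENSMUSG00000061353, 6:117118553-117131385) is the chemokine by which the meninges hold Cajal-Retzius cells and interneurons in place. It had 91.1, 85.1 and 74.2 CPM in the FGF2 embryos and 106, 87.9 and 99.6 CPM in the vehicle embryos. FGF2 embryo 6 was above vehicle embryo 8, so the groups overlapped. The means were 83.5 ± 8.57 and 97.9 ± 9.26 CPM (SD, n = 3), with a log2 fold change of -0.23 ± 0.10 (SE; 95% interval -0.47 to 0.01; edgeR adjusted p = 0.284). Its receptors are Cxcr4, which signals to migration, and Ackr3, listed as Cxcr7, which takes the chemokine up. Cxcr7 had 32.0, 28.8 and 29.5 CPM against 23.9, 22.3 and 24.1 CPM, without overlap, and did not pass (0.36 ± 0.09, edgeR adjusted p = 0.0725). Cxcr4 had 21.7, 28.9 and 21.8 CPM against 18.9, 22.9 and 16.7 CPM and did not pass either (0.31 ± 0.16, edgeR adjusted p = 0.346). Ligand and receptors thus had values of opposite sign, none of them called by edgeR, and the median of the 2 receptors was 0.33. Of the 2 receptors, 1 was at an unadjusted p under 0.05 and 1 was called higher by DESeq2 and by voom.

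Slc6a13 (the GABA transporter GAT2, found in meninges, ENSMUSG00000030108, 6:121250245-121287751) had 2.38, 2.20 and 5.38 CPM against 3.50, 2.09 and 2.67 CPM. Its level in FGF2 embryo 8 was more than that in any other embryo, and the rest overlapped. The log2 fold change was 0.27 ± 0.38 (SE; 95% interval -0.61 to 1.15; edgeR adjusted p = 0.744), the widest interval among the 10, and it became -0.27 without FGF2 embryo 8. Its span overlaps that of AC153982.1. Of 4 related transporters tested (5 listed), 1 was called higher by edgeR and none lower (1 lower at an unadjusted p under 0.05, with DESeq2 and with voom), with a median of -0.18 and 2 of 4 not overlapping. Slc6a8 (-0.32, adjusted p = 0.0698), Slc6a11 (-0.67, adjusted p = 0.332) and Slc6a6 (-0.04, adjusted p = 0.793) did not pass.

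The TGF-beta pathway, whose ligands the proteoglycans bind and which drives Postn and collagen genes in fibroblasts, had 16 tested genes, none of them called by edgeR (6 at an unadjusted p under 0.05, 3 with DESeq2 and 5 with voom). Its median was 0.01, and 4 of 16 did not overlap. The smallest p values were those of Ltbp4 (-0.33, edgeR adjusted p = 0.0716), Tgfbr3 (0.51, adjusted p = 0.0863), Ltbp1 (0.42, adjusted p = 0.113) and Ltbp2 (-1.55, adjusted p = 0.204). Latent TGF-beta binding proteins, which store the ligand in the matrix, thus had values of both signs.

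The 10 markers did not vary as a block across the embryos. Among the 45 pairs of markers, Pearson's r of log2 CPM over the 6 libraries was positive in 21 and negative in 24, with a median of -0.05. These are descriptions over libraries that share a scaling. The most positive pair was Foxd1 with Ogn (0.95), followed by Dcn with Slc6a13 (0.83). The most negative was Foxc1 with Dcn (-0.87), and Lum was negative with Dcn (-0.75) and with Slc6a13 (-0.73) and positive with Foxc1 (0.73) and Cxcl12 (0.70). FGF2 embryo 8 held the top value of Dcn and Slc6a13 and the bottom value of Foxc1, Lum and Cxcl12. Vehicle embryo 8 held the bottom value of 5 markers and the top value of none.

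The mean of the markers' centred log2 CPM was -0.01, 0.11 and 0.09 in FGF2 embryos 6, 7 and 8 and 0.03, -0.22 and 0.00 in vehicle embryos 7, 8 and 9. Among 2371 genes that were eligible, those closest to this profile by Pearson's r over the 6 libraries were Zfp14 (0.993), Sim1 (0.988), Yjefn3 (0.972), Dbpht2 (0.970), Tnnt1 (0.954), Dusp2 (0.950), Lgals7 (0.948) and E130203B14Rik (0.942). None of the 8 was called between the groups. With so many candidates and 6 libraries, such values of r describe these libraries only.

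**Figure D5:**
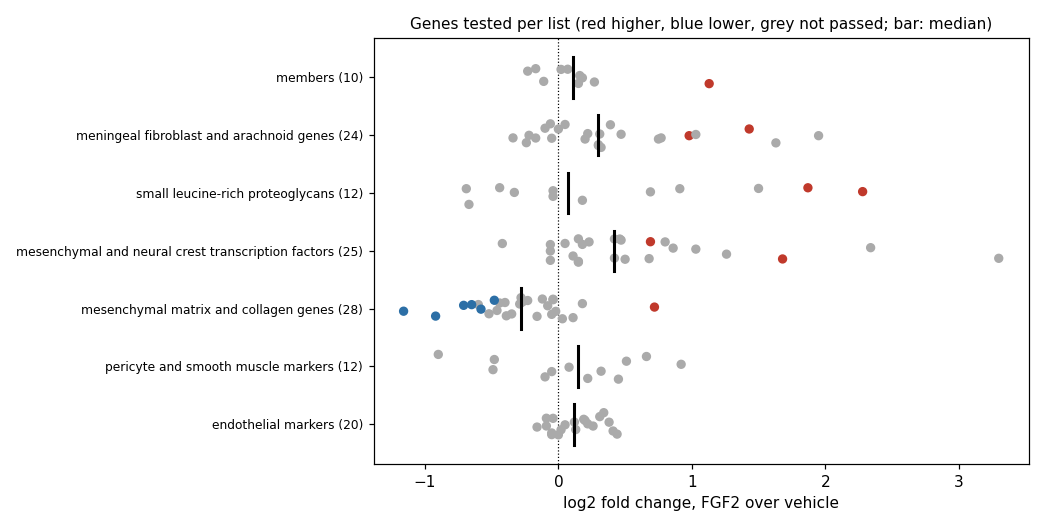
Log2 fold change, FGF2 over vehicle, of each tested gene in 7 lists (number tested in parentheses), red where called higher, blue where called lower and grey where not passed, with a black bar at the median. The matrix and collagen genes lie mostly below 0 (median -0.28), and the other lists shown have medians from 0.07 to 0.42.

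Markers of other cells that sections of this kind can hold were read the same way. The 12 tested pericyte and smooth muscle markers (13 listed) had no edgeR call (5 at an unadjusted p under 0.05, 1 with DESeq2 and 1 with voom) and a median of 0.15, with 4 not overlapping and summed levels of 298, 285 and 277 CPM against 343, 357 and 316 CPM. Acta2, the smooth muscle actin, had 32.6, 35.8 and 19.6 CPM against 44.6, 65.0 and 54.4 CPM and did not pass (-0.90, edgeR adjusted p = 0.0885), nor did Tagln (-0.49), Notch3 (-0.48) and Kcnj8 (0.92). The 20 endothelial markers had no edgeR call (3 at an unadjusted p under 0.05, 0 with DESeq2 and 0 with voom), a median of 0.12 and 2 not overlapping, and summed levels of 587, 615 and 640 CPM against 630, 596 and 543 CPM. Emcn (0.38), Pecam1 (0.22), Egfl7 (0.31) and Cldn5 (0.41) had the smallest p among them.

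Of 15 macrophage and microglia markers, 5 were called higher by edgeR and none lower (1 lower at an unadjusted p under 0.05, with DESeq2 and with voom), with a median of 0.65 and 11 not overlapping, and sums of 183, 209 and 184 CPM against 163, 134 and 135 CPM. Ptprc, the pan-leukocyte antigen, had a log2 fold change of 1.23, Fcgr3 of 1.19, Tyrobp of 1.19 and C1qb of 0.92 (edgeR adjusted p from 0.0202 to 0.0234). Each of these calls was lost without FGF2 embryo 7 or any 1 vehicle embryo, and the number called higher ran from 0 to 7. The list did not go one way. Lyve1, a marker of macrophages of the meninges and other borders, had 3.17, 2.04 and 4.79 CPM against 10.5, 8.24 and 7.59 CPM, without overlap, and did not pass (-1.40 ± 0.30, edgeR adjusted p = 0.0504). Mrc1 (-0.02) and Pf4 (0.10), which also mark border macrophages, overlapped between the groups. Lyve1, Mrc1 and Pf4 were named after their values were seen. The 10 red blood cell markers matched (11 listed) had no edgeR call (2 at an unadjusted p under 0.05, 1 with DESeq2 and 1 with voom), a median of 0.50, 2 not overlapping, and sums of 2629, 4676 and 4335 CPM against 2348, 3292 and 2579 CPM. Hba-a2 (1.70), Hbb-y (0.43) and Hba-a1 (0.54) did not pass, and the near-identical alpha globin genes may share reads.

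Skin, muscle, bone and cartilage markers had no edgeR call among 14 tested (19 listed; 3 at an unadjusted p under 0.05, 1 with DESeq2 and 0 with voom), with a median of 0.29, 5 not overlapping, and sums of 310, 368 and 399 CPM against 353, 333 and 335 CPM. Acan (3.77), Sp7 (1.1), Tnnt1 (0.95) and Matn4 (1.32) did not pass. Of 9 Schwann cell and melanocyte markers, Sox10 was called higher (3.57, edgeR adjusted p = 0.0303) and Dct lower (-1.31, adjusted p = 0.0209). The list had a median of 0.77 and 5 not overlapping, and Pmel (2.04) and Mitf (0.83) did not pass. Dct had 14.8, 11.7 and 14.0 CPM in the FGF2 embryos and 31.3, 24.6 and 44.5 CPM in the vehicle embryos. Tyr, Tyrp1, Pmel and Mitf were far rarer, with vehicle means of 0.818, 0.478, 0.913 and 2.14 CPM. Tyr (0.77) and Tyrp1 (-0.23), named after their values were seen, did not pass. Which cells gave the Dct reads was not tested. The Sox10 call was lost in 5 of the 6 omissions of an embryo, and that of Dct without FGF2 embryo 7, FGF2 embryo 8 or vehicle embryo 7.

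Choroid plexus epithelium, a derivative of the dorsal midline that lies against meningeal mesenchyme, was the list with the largest median in the edgeR test reported. On log2(RPKM + 1), and among genes overlapping no other span, the hypothalamus and eye field list had the largest. Of the 11 choroid plexus markers, 7 were called higher and 1 lower, with a median of 5.36 and 9 not overlapping. Their sums were 191, 261 and 516 CPM against 35.9, 35.7 and 33.3 CPM. Clic6 (6.25), Otx2 (5.36), Htr2c (7.03) and Sostdc1 (3.27) had edgeR adjusted p from 0.000762 to 0.0101. Clic6 and Otx2 were called whichever single embryo was left out, Htr2c was lost without vehicle embryo 7 (0.0509) and Sostdc1 without vehicle embryo 8 (0.064). The number called higher ran from 4 (without vehicle embryo 7) to 8 in those omissions, was 5 without vehicle embryo 8, and was 1 with sex as a covariate. The marker called lower was Aqp1, a water channel named after its value was seen (-1.14 ± 0.24, edgeR adjusted p = 0.0492), and its call was lost without FGF2 embryo 7 or any 1 vehicle embryo, up to 0.182. The 12 dorsal telencephalon markers, which check the labelled tissue, were all tested and all abundant as a sum, at 2243, 2294 and 2594 CPM against 3347, 3381 and 3534 CPM. Of these, 4 were called lower with edgeR (Emx1 -0.88, Eomes -0.91, Neurog2 -0.79 and Pax6 -0.51) and none higher (0 at an unadjusted p under 0.05, 0 with DESeq2 and 1 with voom), with a median of -0.62 and 8 not overlapping. The lower counts were 8 at an unadjusted p under 0.05, 6 with DESeq2 and 8 with voom. Emx1 and Eomes were called in each omission of 1 embryo, whereas Neurog2 was lost without FGF2 embryo 6 or any 1 vehicle embryo (up to 0.0856) and Pax6 without FGF2 embryo 7 or any 1 vehicle embryo (up to 0.14). The number called lower was 2 without any 1 vehicle embryo, 9 without FGF2 embryo 8 and 0 with sex as a covariate. The part of these other cells in the marker and collagen values was not tested.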

How the data were processed

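RNA-seq was done on 3 FGF2 and 3 vehicle embryos. The submitters' processing notes name the build NCBIM37 (mm9) and, without roles, bedtools 2.12.0, Bowtie2 2.1.0.0, TopHat2 2.0.9 and CASAVA 1.8. The deposited count files hold whole numbers of alignments over each gene's span, so introns are included, reads of overlapping genes count for each, and strand use is not stated. The deposited RPKM values, scaled by the authors for gene length and read number with an unnamed tool, were joined by symbol to 34290 genes. Coordinates are 1-based.

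Counts were tested with edgeR 4.0.16 in R 4.3.3 (filterByExpr, TMM, robust glmQLFit, glmQLFTest), adjusted by the Benjamini-Hochberg method over 21983 genes, with limma 3.58.1 and DESeq2 1.42.0 among 20 alternatives. CPM is scaled by TMM, log2 fold changes are FGF2 over vehicle, and the script was tested on simulated data. Intervals are 95% from the fit. With 3 embryos a group the smallest two-sided exact permutation p is 0.1, and the p-values given come from the fitted model. Same-numbered embryos did not deviate together (correlations -0.04 and -0.02 for numbers 7 and 8). The 10 members and the 16 lists were chosen with earlier results of these data known. Named were all members, per list the 4 genes of smallest p, and the 8 genes most like the members' mean profile among genes above 1 mean CPM and 0.3 SD of log2 CPM whose span overlaps no other. Some genes that this rule takes are not reported here. Genes with 2 identifiers, such as Alx1 and Runx2, were read from the one with more reads, and Ahsp was not matched.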

Additional observations from a re-analysis of the deposited data

How the results depend on the processing

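The median log2 fold change of the 10 markers lay between -0.00 and 0.19 in all alternatives. The number of markers called, 1 in the test reported, ran from 0 to 1 when single embryos were left out, and was 0 with sex as a covariate and 0 on log2(RPKM + 1), on log2(RPKM + 0.1) and on log2(RPKM + 1) without a filter on low values. On these 3 RPKM scales Foxd1 had adjusted p of 0.074, 0.0715 and 0.135, by limma. With the embryo number as a replicate block, which the labels do not describe as a pairing and the data do not show as one, 2 markers were called: Foxd1 (1.02, edgeR adjusted p = 0.0414) and Postn (0.73, edgeR adjusted p = 0.0385). FGF2 embryo 6 and vehicle embryo 9 have no partner of the same number, so the group difference in that fit rests on the embryos numbered 7 and 8. The direction was the same in every alternative for Foxd1, Ogn, Islr, Cxcl12 and Bgn, and changed in some for Foxc1, Dcn, Lum, Postn and Slc6a13, none of which was called there. The number of genes called in the whole table, 799, ran from 218 (without vehicle 8) to 1943 (without FGF2 8) when single embryos were left out. It was 5 with sex as a covariate, 2148 with voom and sample quality weights, 2145 with DESeq2, 446 on log2(RPKM + 1), 440 on log2(RPKM + 0.1), 324 on the unfiltered RPKM, and 488 among genes overlapping no other span. The cause of these changes was not tested, except that the filters and omissions leave fewer genes or samples. With sex as a covariate, the group difference rests on 1 vehicle embryo, the one with Y-linked reads. Slc6a13 had the lowest counts of the markers, down to 140 as deposited, or 84 if those of vehicle 9 are halved. The SE of its log2 fold change was 0.38 in the test reported. It was 0.26 without FGF2 embryo 8 and 0.38 with the counts of vehicle 9 halved. The cause of its wide interval was not tested.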
